A study of Mus musculus with 6 samples.

Results

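The genes described here encode the non-collagen part of the extracellular matrix: glycoproteins, proteoglycans and laminins. The list holds 48 mouse genes chosen by name from what their proteins are, by a rule that uses no measured value, though with earlier results of these data known. Of these, 45 were measured, each by 1 probe set, among 19505 genes named on the array and 22206 gene probe sets in all. Ecm1, Efemp2 and Fbn1 are not analysed here.

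RNA came from 3 lines of melan-a, an immortalized melanocyte culture of the C57BL/6J mouse strain, and was read on Affymetrix Clariom S arrays, 2 per line. The line mVec carries the vector that the titles call CD516B2, serves as the control and has the label melanocyte. Introduced Kit with the K641E substitution is carried by the other lines, mKitK641E(T) and mKitK641E(PT), which the labels describe as transformed melanoma and which are T and PT below. Kit is a receptor tyrosine kinase that melanocytes need for growth and survival. All 3 lines grew untreated in RPMI with serum. The titles add C3# for T and hi exp for PT. No source used here gives the meaning of T and PT, the promoter that drives Kit, or whether a line is 1 clone. A group is thus 1 line, and the titles number its arrays without naming separate cultures, so p-values measure only the spread between these arrays, which may be technical.

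Matrix glycoproteins and proteoglycans are secreted, assemble outside the cell and hold growth factors as well as cells. Small leucine-rich proteoglycans bind collagen fibrils and set their width. Laminins are trimers of an alpha, a beta and a gamma chain that, joined by nidogen and perlecan, form the sheet of the basement membrane. Fibulins, fibrillins and latent TGF-beta binding proteins build elastic fibres and microfibrils and tether TGF-beta, and matricellular proteins such as periostin and tenascin-C act on cells rather than bear load. In skin, melanocytes sit on a laminin-rich basement membrane, while most fibrillar matrix comes from dermal fibroblasts.

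The deposited values are on a log2 scale. Each array had a background limit, the 95th percentile of the 5222 negative-control probe sets on it, which lay between 8.74 and 9.16. A line is at background for a gene when neither of its arrays exceeds its limit. Array medians lay between 5.64 and 5.89, and the arrays of a line correlated at 0.993 to 0.995 across probe sets. The Kit probe set was at background on all 6 arrays, with 4.68 and 4.97 in mVec, 4.53 and 5.18 in T, and 4.53 and 3.84 on the PT arrays. No source used here says whether it reads the introduced Kit, so it checks no label. Of 10 melanocyte markers, Tyr, Tyrp1, Dct, Pmel, Mlana, Slc45a2, Sox10 and Kit were at background on all 6 arrays, while Gpnmb exceeded the limit on all 6 and Mitf on the T arrays alone. The labelled cell type was therefore not borne out by its defining markers in any line.

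Markers of other cell types differed between the lines. Of 8 measured fibroblast markers, Pdgfrb, Fap, Twist2 and Prrx1 exceeded the limit on both mVec arrays and all 4 fell in both Kit lines, where Pdgfrb alone stayed above it. Thy1, Dpt, Pi16 and Cd34 were at background on all arrays. The log2 of the summed fibroblast signal was 15.78 to 15.83 in mVec, 12.26 to 12.49 in T and 11.66 to 12.04 in PT. Among 6 smooth muscle and pericyte markers only Acta2 exceeded the limit, and the list's sum was 16.59 to 16.67 in mVec, 11.56 to 11.58 in T and 8.79 to 8.99 in PT. Among 6 endothelial markers only Cdh5 did, in mVec alone, with a sum of 10.63 to 10.83 there and 6.55 to 6.97 in the Kit lines. The summed melanocyte list was 15.27 to 15.30 in mVec, 13.86 to 13.91 in T and 12.90 to 13.02 in PT, carried by Gpnmb. By limma, Gpnmb was called lower in both Kit lines. Mitf was called higher in T (1.03 ± 0.20, adjusted p = 0.00314) and in PT (0.84 ± 0.20, adjusted p = 0.00901), with PT and mVec at background. The other 8 melanocyte markers were not called in either line. No Schwann cell, keratinocyte or leukocyte marker exceeded the limit on both arrays of a line. These sums move with the matrix genes below, and their part in those results was not tested.

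Promoter windows are shown for 5 genes whose differences between the lines the results turn on: 2 neighbours in one gene cluster that ended at very different levels in the Kit lines (Aspn and Ogn), the fasciclin pair (Postn and Tgfbi), and Efemp1, which separates T from PT. RefSeq windows on GRCm38.p6, from 250 bases before to 50 after the transcription start, were found for 29 of the 45 measured members, 39 windows in all. All 5 are on the plus strand and run 5′ to 3′, with matches to 6 motifs in capitals. The Aspn window is chr13:49544193-49544492, that of Ogn chr13:49607765-49608064, that of Postn chr3:54360857-54361156, that of Tgfbi chr13:56609336-56609635 and that of Efemp1 chr11:28852955-28853254.
Aspn: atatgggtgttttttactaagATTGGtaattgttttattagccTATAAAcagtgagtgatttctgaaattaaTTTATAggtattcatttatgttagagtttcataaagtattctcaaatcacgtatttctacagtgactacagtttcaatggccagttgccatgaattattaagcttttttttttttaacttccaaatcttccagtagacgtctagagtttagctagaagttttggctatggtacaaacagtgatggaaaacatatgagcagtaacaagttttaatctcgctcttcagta
Ogn: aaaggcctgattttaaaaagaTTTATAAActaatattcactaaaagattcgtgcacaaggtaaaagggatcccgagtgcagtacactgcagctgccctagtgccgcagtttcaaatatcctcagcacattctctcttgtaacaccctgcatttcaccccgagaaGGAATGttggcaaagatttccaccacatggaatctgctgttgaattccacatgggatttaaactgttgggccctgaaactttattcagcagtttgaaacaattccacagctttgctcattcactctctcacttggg
Postn: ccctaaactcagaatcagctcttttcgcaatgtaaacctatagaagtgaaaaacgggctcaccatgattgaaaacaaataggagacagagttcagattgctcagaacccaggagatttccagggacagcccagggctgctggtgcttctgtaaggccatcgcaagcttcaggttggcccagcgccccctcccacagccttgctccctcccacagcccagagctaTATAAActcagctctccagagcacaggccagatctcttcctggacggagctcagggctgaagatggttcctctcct
Tgfbi: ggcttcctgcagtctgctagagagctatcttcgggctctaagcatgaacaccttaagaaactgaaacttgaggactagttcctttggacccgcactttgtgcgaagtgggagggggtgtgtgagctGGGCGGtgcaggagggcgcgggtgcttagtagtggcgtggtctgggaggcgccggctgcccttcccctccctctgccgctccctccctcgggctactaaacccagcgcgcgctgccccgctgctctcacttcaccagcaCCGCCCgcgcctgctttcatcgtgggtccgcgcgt
Efemp1: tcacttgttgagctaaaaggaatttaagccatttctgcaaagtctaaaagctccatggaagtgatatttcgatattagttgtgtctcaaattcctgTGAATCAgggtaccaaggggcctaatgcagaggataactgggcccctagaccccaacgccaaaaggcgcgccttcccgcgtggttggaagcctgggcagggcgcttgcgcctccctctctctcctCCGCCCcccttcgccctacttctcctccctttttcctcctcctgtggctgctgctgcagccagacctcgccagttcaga

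Motifs were searched on both strands, with the start site counted as 0. The letters TATAAA, the TATA box, stood at -26 in this Postn window, the place where such a box usually lies, at -207 and -178 in Aspn and at -229 and -227 in Ogn, the latter as overlapping matches on opposite strands. CCAAT stood at -229 in Aspn. GGGCGG, the GC box, stood at -124 and 15 in Tgfbi and at -29 in Efemp1. TGANTCA, the AP-1 motif, stood at -154 in Efemp1, and GGAATG, the TEAD motif, at -86 in Ogn. A second Postn window, at chr3:54359017-54359316, held only CCAAT, at 24. Over the 39 member windows the TATA box was in 6, CCAAT in 13, the GC box in 20, the AP-1 motif in 2, the TEAD motif in 4 and the SMAD motif CAGACA in 14. Over 32851 RefSeq promoter windows of the same length the shares were 13.6%, 37.4%, 35.7%, 7.81%, 14.7% and 21% in that order. The median GC content was 59.3% in the member windows and 52.7% in all. Of the 29 genes, 8 have 2 windows and 1 has more, so the 39 are not independent, and the counts are given without a test.

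Against mVec, far more matrix genes fell than rose in both Kit lines. Calls were made with limma at an adjusted p under 0.05, with the adjustment over all 22206 gene probe sets. In T, 27 of the 45 measured members were called lower, 1 was called higher and 17 were not called. Over all gene probe sets 15.5% were called lower and 16.9% higher in that comparison. In PT, 25 were called lower, 2 higher and 18 were not called, against 18% lower and 17.9% higher over all gene probe sets. The median log2 difference of the members was -1.18 in T and -1.33 in PT, beside 0.01 and 0.08 over all gene probe sets. With each array centred on its own median, which shifts these differences by 0.18 and 0.19, higher calls go from 52.3% to 62.3% of all calls in T and from 49.9% to 60.3% in PT. The comparisons share the mVec arrays, and 24 members were called lower in both. No share over all gene probe sets is given here for that overlap. In these bulk samples, fewer cells of a type and less RNA per cell cannot be told apart.

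The fall was a loss of detectable signal for many members. On both mVec arrays 25 members were above background, against 9 in T and 11 in PT. On single arrays, 29.0% to 32.6% of all gene probe sets were above the limit. Of the 25, 13 were above background on neither T array and 14 on neither PT array, where the same held for 9.99% and 14.6% of the 6820 gene probe sets above background on both mVec arrays. Aspn, Dcn, Bgn, Prelp, Hspg2, Postn, Tgfbi, Matn2, Lama4, Lamb2, Nid2 and Mfap4 make up the 12 lost in both. No member went the other way. For loss in both lines and for gain, no share over all gene probe sets is given here. Ogn, Thbs1, Sparc, Fn1, Fbln5, Lamb1, Lamc1 and Ltbp1 were above background on all 6 arrays, and 20 members were at background throughout. Where 1 line is at background, folds below are lower bounds against its limit and read "at least". Where both are, the log2 difference is given without a fold, and 7 of the calls in T and 6 in PT were of that kind.

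**Figure D1:**
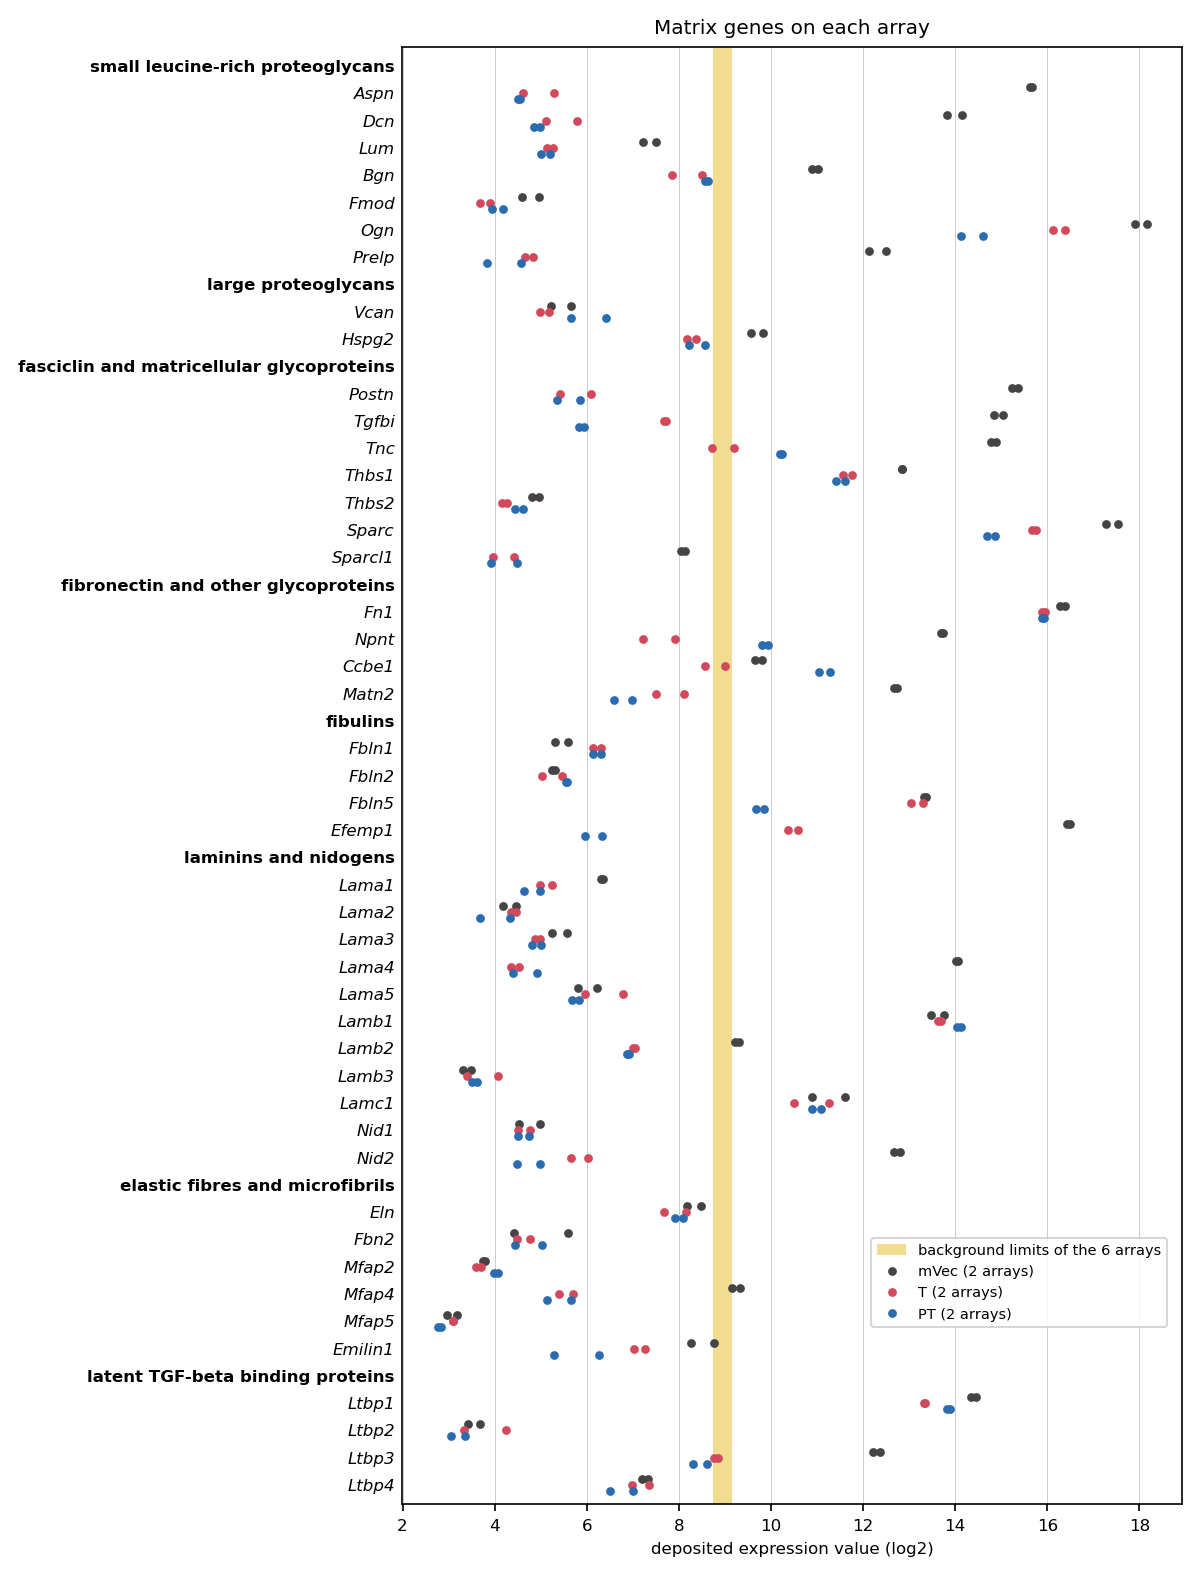
Deposited log2 value (x axis) of the 45 measured matrix genes, grouped by role, with 1 point per array for mVec, T and PT; the band spans the background limits of the 6 arrays, 8.74 to 9.16. In 12 rows, among them Aspn, Postn, Lama4 and Nid2, both mVec points exceed their limits and all 4 Kit-line points do not, while Fn1, Lamb1 and Lamc1 lie to its right in all 3 lines.

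All 7 small leucine-rich proteoglycans were called lower in both Kit lines, with a median log2 difference of -2.78 in T and -3.67 in PT. Aspn encodes asporin, which binds collagen and TGF-beta. Aspn read 15.62 and 15.68 on the mVec arrays, 4.61 and 5.30 on the T arrays, and 4.51 and 4.56 on the PT arrays. In T it was lower by at least 113-fold (log2 difference -10.70 ± 0.25, SE, n = 2 arrays per line here and below, adjusted p = 1.45e-08). In PT it was at least 99.5-fold lower (-11.11 ± 0.25, adjusted p = 8.59e-09). Both Kit lines were at background with no overlap with mVec, and they did not differ by the test (T minus PT 0.42, adjusted p = 0.375).

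Dcn encodes decorin, which limits fibril width and binds TGF-beta. Its arrays gave 14.15 and 13.83 in mVec, 5.79 and 5.12 in T, and 4.99 and 4.85 in PT. Dcn was lower by at least 35.6-fold in T (-8.53 ± 0.26, adjusted p = 3.41e-08) and by at least 31.4-fold in PT (-9.07 ± 0.26, adjusted p = 1.79e-08). Prelp encodes a proline- and arginine-rich member of the family that anchors basement membranes to connective tissue. It gave 12.50 and 12.13 in mVec, 4.67 and 4.83 in T, and 3.82 and 4.58 in PT. Prelp was lower by at least 11.2-fold in T (-7.57 ± 0.28) and by at least 9.87-fold in PT (-8.12 ± 0.28), with all Kit-line arrays at background. Bgn, which encodes the decorin relative biglycan, fell from 11.02 and 10.88 in mVec to 7.84 to 8.63 over the 4 Kit-line arrays, lower by at least 4.35-fold in T and by at least 3.84-fold in PT.

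Ogn encodes osteoglycin, or mimecan, and was above background on all 6 arrays, unlike Aspn, Dcn and Prelp. It read 18.16 and 17.92 in mVec, 16.39 and 16.13 in T, and 14.61 and 14.12 in PT. The 3 lines did not overlap: mVec was highest and PT lowest. Ogn was 3.42-fold lower in T (-1.77 ± 0.24, adjusted p = 0.000269) and 12.7-fold lower in PT (-3.67 ± 0.24, adjusted p = 1.63e-06). Lum, which encodes lumican, and Fmod, which encodes fibromodulin, were at background on all 6 arrays. Their calls, -2.17 ± 0.21 and -2.27 ± 0.21 for Lum and -0.98 ± 0.22 and -0.71 ± 0.22 for Fmod in T and PT, are differences below the limit. The Fmod call in T ended without mVec replicate 1 (adjusted p = 0.0764). In PT it ended without PT replicate 1 (0.0601), PT replicate 2 (0.158) or mVec replicate 1 (0.238), and with centred arrays (0.0985).

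Neighbouring genes in these clusters did not share 1 level in the Kit lines. In the RefSeq order Ippk, Cenpp, Ecm2, Aspn, Omd, Ogn, Nol8, 4 matrix genes lie inside the span of Cenpp, a centromere protein gene. Omd, which encodes the keratan sulfate proteoglycan osteomodulin and stands between Aspn and Ogn, read 13.35 and 13.04 in mVec, 6.13 and 5.67 in T, and 3.70 and 4.73 in PT. Omd was lower by at least 20.5-fold in T (-7.29 ± 0.33) and by at least 18.1-fold in PT (-8.98 ± 0.33). Thus Aspn and Omd were at background in both Kit lines while Ogn beside them was above it. Cenpp itself lay between 7.84 and 8.43 on all 6 arrays, below the limits. Nol8, a nucleolar protein gene past Ogn, rose from 10.60 and 10.31 in mVec to 13.87 and 13.65 in T (9.86-fold) and 13.54 and 13.34 in PT (7.90-fold). Ippk, on the other side, was at least 1.51-fold higher in T and at least 1.68-fold higher in PT. Aspn and Ogn overlap Cenpp in the annotation, and no source used here says which strand the probes read.

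Around Dcn the order is Dcn, Lum, Kera, Epyc, all of them leucine-rich proteoglycan genes. Of these Dcn alone exceeded the limit, and in mVec alone. Kera read 4.08 and 4.24 in mVec and 3.12 to 3.61 in the Kit lines, and Epyc lay between 4.43 and 5.07 over all arrays. In the order Optc, Prelp, Fmod, Btg2, Prelp exceeded the limit in mVec between Optc, at 5.10 to 5.43 throughout, and Fmod, at 3.68 to 4.95. Btg2, an antiproliferative gene beyond Fmod, also fell from above to below the limit, from 10.05 and 10.20 in mVec to 7.76 and 7.88 in T and 6.74 and 7.54 in PT.

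**Figure D2:**
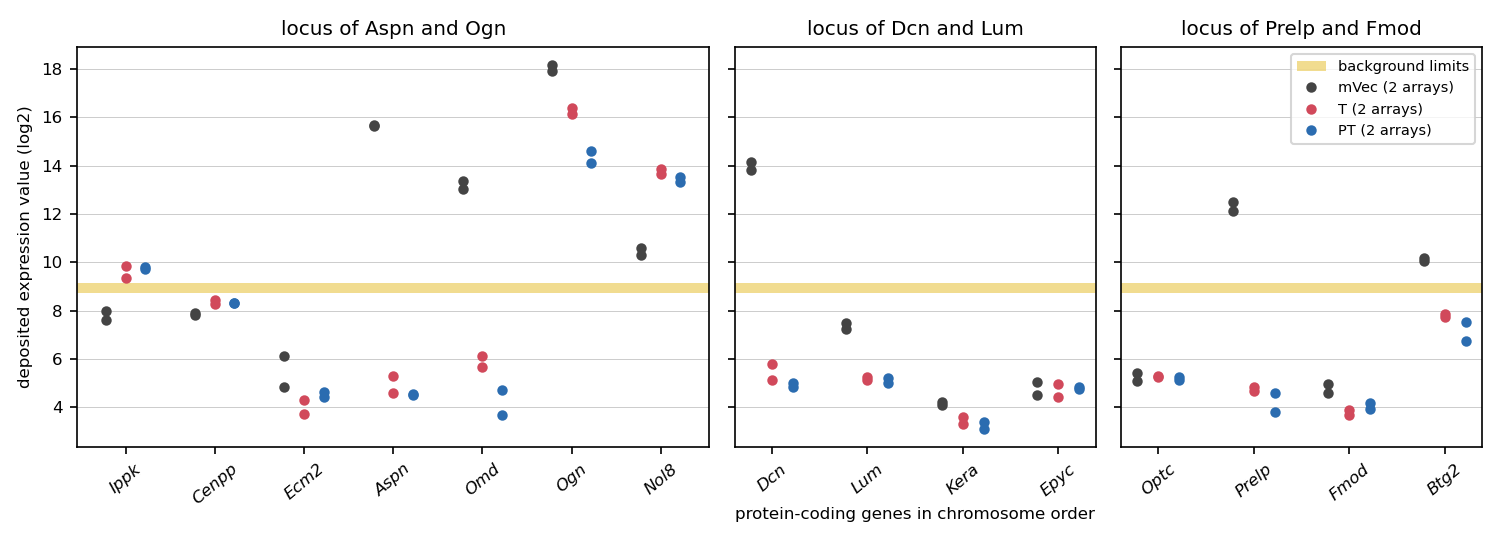
Deposited log2 value (y axis) of the protein-coding genes around 6 small leucine-rich proteoglycan genes, in chromosome order and not to genomic scale, with 1 point per array; the band spans the background limits. Aspn, Omd, Dcn and Prelp have mVec points above the band and Kit-line points below it, Ogn is above it in all 3 lines, and Nol8 is higher in T and PT than in mVec.

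The large proteoglycans differed between themselves. Hspg2 encodes perlecan, the heparan sulfate proteoglycan of basement membranes. It read 9.84 and 9.57 in mVec, 8.18 and 8.38 in T, and 8.57 and 8.21 in PT, so that mVec alone was above background. Hspg2 was lower by at least 1.83-fold in T (-1.42 ± 0.23, adjusted p = 0.000751) and by at least 1.61-fold in PT (-1.31 ± 0.23, adjusted p = 0.00107). Vcan, which encodes the chondroitin sulfate proteoglycan versican, was at background on all 6 arrays, with 5.65 and 5.22 in mVec, 5.19 and 4.99 in T, and 6.41 and 5.65 in PT. It was not called in T (-0.35, adjusted p = 0.428) or in PT (0.59, adjusted p = 0.145). In PT it was called higher with centred arrays (adjusted p = 0.0454) and without PT replicate 2 (0.0342).

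Among fasciclin and matricellular glycoproteins, all 7 were called lower in T and 6 in PT, with medians of -3.90 and -3.88. Both medians are the differences of Sparcl1, which was at background on all 6 arrays. Postn encodes periostin, a fasciclin-domain protein of fibroblast matrix that binds integrins and tenascin-C. It read 15.22 and 15.37 in mVec, 5.42 and 6.09 in T, and 5.85 and 5.35 in PT. Postn was lower by at least 88.4-fold in T (-9.54 ± 0.28, adjusted p = 2.86e-08) and by at least 78.1-fold in PT (-9.70 ± 0.28, adjusted p = 1.79e-08). The Kit lines overlapped each other and lay far from mVec.

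Tgfbi encodes the other fasciclin-domain protein here, known for its induction by TGF-beta. Its readings were 14.85 and 15.04 in mVec, 7.67 and 7.71 in T, and 5.84 and 5.95 in PT. Tgfbi was lower by at least 69.2-fold in T (-7.25 ± 0.20, adjusted p = 2.4e-08) and by at least 61.1-fold in PT (-9.05 ± 0.20, adjusted p = 8.59e-09). Both Kit lines were at background, T above PT. Tnc encodes tenascin-C, a hexameric glycoprotein of embryonic, wound and tumour stroma. It read 14.88 and 14.77 in mVec, 8.71 and 9.21 in T, and 10.20 and 10.25 in PT, with 1 T array at background. Tnc was 58.3-fold lower in T (-5.87 ± 0.23, adjusted p = 1.09e-07) and 24.3-fold lower in PT (-4.60 ± 0.23, adjusted p = 3.07e-07).

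Sparc, the collagen-binding glycoprotein osteonectin, stayed above background in all lines. It read 17.27 and 17.53 in mVec, 15.75 and 15.67 in T, and 14.69 and 14.87 in PT. The order of the lines was that of Ogn, with mVec highest and PT lowest and no overlap. Sparc was 3.23-fold lower in T (-1.69 ± 0.21, adjusted p = 0.000147) and 6.14-fold lower in PT (-2.62 ± 0.21, adjusted p = 5.67e-06). Thbs1, which encodes thrombospondin-1, an antiangiogenic protein that can activate latent TGF-beta, was also above background throughout. Its arrays gave 12.84 and 12.85 in mVec, 11.57 and 11.76 in T, and 11.60 and 11.42 in PT. Thbs1 was 2.27-fold lower in T (-1.18 ± 0.20, adjusted p = 0.00129) and 2.52-fold lower in PT (-1.33 ± 0.20, adjusted p = 0.00049).

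Sparcl1, which encodes the Sparc relative hevin, was at background in all lines. Within that range it read 8.13 and 8.04 in mVec, 4.41 and 3.96 in T, and 3.92 and 4.49 in PT, and it was called lower in both (-3.90 ± 0.26 and -3.88 ± 0.26). Thbs2, a second thrombospondin, lay between 4.16 and 4.97 on the 6 arrays. It was called lower in T (-0.68 ± 0.20, adjusted p = 0.0272) and not in PT (-0.37, adjusted p = 0.205). The Thbs2 call ended with centred arrays (adjusted p = 0.1) and without T replicate 1 (0.0523), T replicate 2 (0.0981), mVec replicate 1 (0.081) or mVec replicate 2 (0.165).

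Fn1 encodes fibronectin, the glycoprotein on which cells assemble much of their provisional matrix. Its 6 values lay close together, at 16.39 and 16.27 in mVec, 15.95 and 15.88 in T, and 15.93 and 15.88 in PT. Both mVec arrays were above all 4 Kit-line arrays, but the difference was not called (-0.42 ± 0.20 in both lines, adjusted p = 0.153 in T and 0.136 in PT). With a mean-variance trend in limma, Fn1 was called lower in T (adjusted p = 0.00999) and PT (0.00791). It was also called with probe sets at background left out (0.049 and 0.0432). T and PT differed by 0.01 ± 0.20.

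Npnt encodes nephronectin, an integrin ligand of basement membranes. It read 13.69 and 13.74 in mVec, 7.91 and 7.23 in T, and 9.94 and 9.80 in PT, a separate level in each line. Npnt was lower by at least 29.4-fold in T (-6.14 ± 0.25, adjusted p = 1.54e-07) and by 14.4-fold in PT (-3.84 ± 0.25, adjusted p = 1.67e-06). Matn2 encodes matrilin-2, an adaptor of filamentous matrix networks. It gave 12.74 and 12.67 in mVec, 7.50 and 8.12 in T, and 6.98 and 6.60 in PT. Matn2 was lower by at least 14.6-fold in T (-4.89 ± 0.26) and by at least 12.9-fold in PT (-5.92 ± 0.26). Matn2 overlaps 9430069I07Rik in the annotation, so its reading could include that gene.

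Ccbe1, a secreted protein that promotes VEGF-C processing in lymphatic vessel growth, was the only member called with opposite signs in the Kit lines. It read 9.65 and 9.80 in mVec, 9.00 and 8.56 in T, and 11.28 and 11.05 in PT. Both PT arrays were above both mVec arrays, which were above both T arrays. In PT Ccbe1 was 2.70-fold higher (1.43 ± 0.23, adjusted p = 0.000651), and in T, with 1 array at background, 1.93-fold lower (-0.95 ± 0.23, adjusted p = 0.00945). The call in T ended without T replicate 2 (adjusted p = 0.0641) or mVec replicate 2 (0.0705).

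Of 4 measured fibulins, Efemp1 fell in both Kit lines and Fbln5 in PT. Efemp1 encodes fibulin-3, a glycoprotein of elastic tissues and basement membranes. It read 16.43 and 16.49 in mVec, 10.36 and 10.60 in T, and 6.32 and 5.97 in PT, a separate level in each line. Efemp1 was 63.2-fold lower in T (-5.98 ± 0.22, adjusted p = 7.82e-08). In PT, where it was at background, it was at least 175-fold lower (-10.31 ± 0.22, adjusted p = 8.59e-09).

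Fbln5 encodes fibulin-5, which deposits elastin on microfibrils. Its readings were 13.33 and 13.37 in mVec, 13.04 and 13.30 in T, and 9.67 and 9.86 in PT. T lay next to mVec (-0.18 ± 0.21, adjusted p = 0.592), and PT lay apart from both, 12.0-fold lower than mVec (-3.59 ± 0.21, adjusted p = 7.76e-07). Fbln1 and Fbln2, encoding other basement membrane and elastic fibre fibulins, were at background on all 6 arrays. Fbln1 read 5.30 and 5.60 in mVec, 6.13 and 6.31 in T, and 6.32 and 6.13 in PT, and was called higher in both (0.77 ± 0.21, adjusted p = 0.0195, and 0.78 ± 0.21, adjusted p = 0.017). The Fbln1 call in T ended without T replicate 2 (adjusted p = 0.0903) or mVec replicate 1 (0.158), and that in PT without PT replicate 1 (0.097) or mVec replicate 1 (0.145). Fbln2 read 5.32 and 5.25 in mVec, 5.45 and 5.04 in T, and 5.55 and 5.57 in PT, and was not called.

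Of 11 laminin and nidogen genes, 4 were called lower in each Kit line, the same 4 in both: Lama1, Lama4, Lamb2 and Nid2. Lama4 encodes the alpha-4 chain of mesenchymal and vascular basement membranes. It read 14.06 and 14.02 in mVec, 4.54 and 4.36 in T, and 4.91 and 4.39 in PT. Lama4 was lower by at least 36.9-fold in T (-9.59 ± 0.23, adjusted p = 1.45e-08) and by at least 32.6-fold in PT (-9.39 ± 0.23, adjusted p = 9.49e-09). It was the only alpha chain above background in any line. Lama1 read 6.32 and 6.35 in mVec and 4.64 to 5.24 in the Kit lines, and was called lower at background (-1.22 ± 0.22 and -1.52 ± 0.22). Lama2, Lama3 and Lama5 lay between 3.69 and 6.79 on the 6 arrays and were not called.

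Among the beta and gamma chains, with which alpha chains pair, Lamb2 fell and Lamb1 and Lamc1 were not called. Lamb1, the beta-1 chain, read 13.48 and 13.76 in mVec, 13.64 and 13.69 in T, and 14.05 and 14.12 in PT. T lay within the mVec pair (0.05 ± 0.20, adjusted p = 0.912), and PT lay above it without a call (0.46 ± 0.20, adjusted p = 0.116). With centred arrays the PT difference was called higher (adjusted p = 0.0319), as with background probe sets left out (0.0379) and with a mean-variance trend (0.0278). Lamc1, the gamma-1 chain, read 11.61 and 10.89 in mVec, 11.25 and 10.49 in T, and 10.90 and 11.08 in PT. The lines overlapped, with no call (-0.38 ± 0.31 in T, adjusted p = 0.431, and -0.26 ± 0.31 in PT, adjusted p = 0.598). So on the T and PT arrays Lamb1 and Lamc1 were above background while all 5 measured alpha chains were below it. Lamb2, the beta-2 chain, read 9.30 and 9.22 in mVec and 6.88 to 7.04 in the Kit lines, lower by at least 1.34-fold in T and by at least 1.19-fold in PT. Lamb3, the beta-3 chain of epithelial laminin, lay between 3.31 and 4.06 and was not called.

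Nidogens link laminin to type IV collagen. Nid2 read 12.80 and 12.67 in mVec, 5.65 and 6.03 in T, and 4.98 and 4.48 in PT. It was lower by at least 15.0-fold in T (-6.90 ± 0.24, adjusted p = 7.43e-08) and by at least 13.2-fold in PT (-8.01 ± 0.24, adjusted p = 2.12e-08). Nid2 overlaps Rtraf in the annotation, so its reading could include that gene. Nid1 lay between 4.51 and 4.99 on the 6 arrays, at background in every line, and was not called.

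**Figure D3:**
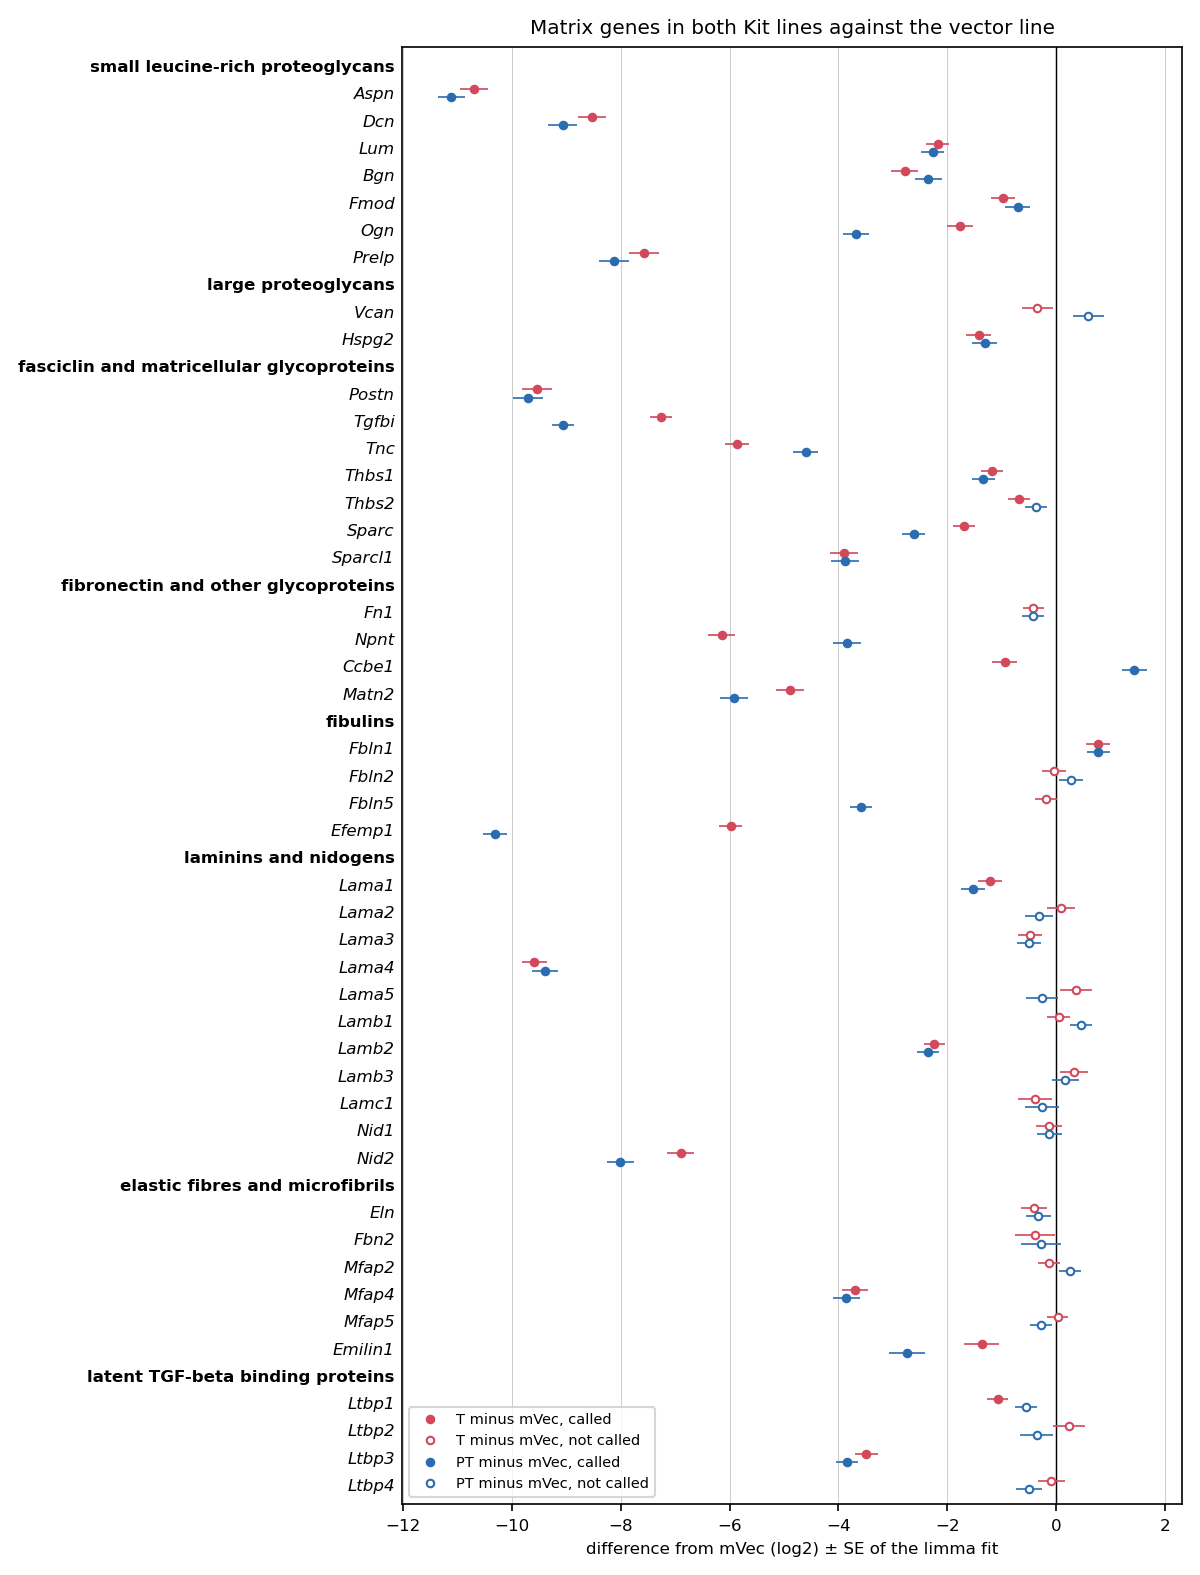
Log2 difference from mVec (x axis) of each measured member in T and PT, with bars of 1 SE and filled points for calls at an adjusted p under 0.05. The points run from -11.11 (Aspn in PT) to 1.43 (Ccbe1 in PT), and Fn1, Lamb1 and Lamc1 lie within 0.5 of 0 in both lines.

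Elastic fibre and microfibril genes were mostly at background. Mfap4, a microfibril-associated glycoprotein, was the only one of 6 above it, in mVec at 9.16 and 9.32, against 5.39 and 5.70 in T and 5.65 and 5.13 in PT. Mfap4 was lower by at least 1.33-fold in T (-3.70 ± 0.24) and by at least 1.17-fold in PT (-3.85 ± 0.24). Emilin1, an elastic fibre glycoprotein that restrains TGF-beta maturation, read 8.26 and 8.76 in mVec, 7.02 and 7.27 in T, and 5.28 and 6.26 in PT, all at background. It was called lower in T (-1.37 ± 0.32, adjusted p = 0.0086) and PT (-2.74 ± 0.32, adjusted p = 8.86e-05). The Emilin1 call in T ended without T replicate 1 (adjusted p = 0.0538) or mVec replicate 2 (0.0731). Eln, which encodes tropoelastin, read 8.19 and 8.48 in mVec and 7.69 to 8.16 in the Kit lines, and was not called. Fbn2, a fibrillin, lay between 4.42 and 5.59 on the 6 arrays, Mfap2 between 3.59 and 4.08 and Mfap5 between 2.76 and 3.18, with no call.

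Latent TGF-beta binding proteins tether the inactive growth factor to the matrix. Ltbp3, which also has a role in skeletal and tooth growth, read 12.22 and 12.38 in mVec, 8.86 and 8.77 in T, and 8.31 and 8.60 in PT. Only 1 of the 4 Kit-line arrays, in T, exceeded its limit. Ltbp3 was 11.2-fold lower in T (-3.48 ± 0.21, adjusted p = 1.46e-06) and at least 9.73-fold lower in PT (-3.84 ± 0.21, adjusted p = 5.48e-07). Ltbp1, a major carrier of latent TGF-beta in the matrix, read 14.46 and 14.35 in mVec, 13.35 and 13.31 in T, and 13.88 and 13.83 in PT. The lines did not overlap, and Ltbp1 was 2.11-fold lower in T (-1.07 ± 0.20, adjusted p = 0.00186).

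In PT the Ltbp1 difference was not called (-0.55 ± 0.20, adjusted p = 0.0532). It was called there with quantile normalization (adjusted p = 0.0128), with probe sets at background left out (0.0131), with probe sets below the median left out (0.0227) and with a mean-variance trend (0.0066). Ltbp2 lay between 3.06 and 4.25 and Ltbp4 between 6.51 and 7.36 on the 6 arrays, both at background and not called.

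The Kit lines differed from each other for 11 members. T was called higher for 8 and lower for 3, where 5.67% of all gene probe sets were called higher and 2.7% lower. The members' median difference was 0.11, beside -0.04 over all gene probe sets. Efemp1 was at least 2.77-fold higher in T (4.33 ± 0.22, adjusted p = 9.5e-05) and Fbln5 10.6-fold higher (3.41 ± 0.21, adjusted p = 0.000112). Both encode fibulins with a role in elastic fibres. Ogn was 3.72-fold higher in T (1.90 ± 0.24, adjusted p = 0.00238) and Sparc 1.90-fold higher (0.93 ± 0.21, adjusted p = 0.0265). In the other direction, Ccbe1 was 5.21-fold higher in PT (T minus PT -2.38 ± 0.23, adjusted p = 0.000868). Npnt was at least 2.05-fold higher in PT (-2.30 ± 0.25, adjusted p = 0.00144), and Tnc 2.40-fold higher (-1.26 ± 0.23, adjusted p = 0.0102).

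Another 4 calls, all higher in T, were between readings at background: Tgfbi (1.80 ± 0.20, adjusted p = 0.0016), Emilin1 (1.37 ± 0.32, adjusted p = 0.0322), Nid2 (1.11 ± 0.24, adjusted p = 0.0247) and Matn2 (1.02 ± 0.26, adjusted p = 0.0401). Several of the smaller calls missed the threshold when 1 array was left out. The Sparc call ended without any 1 of the 4 Kit-line arrays: T replicate 1 (adjusted p = 0.0728), T replicate 2 (0.0911), PT replicate 1 (0.156) or PT replicate 2 (0.0757), while its difference stayed between 0.84 and 1.02 in these fits. For Tnc it ended without PT replicate 1 (0.0669, difference -1.29) or PT replicate 2 (0.0632, difference -1.24). For Nid2 it ended without T replicate 2 (0.142), PT replicate 1 (0.0503) or PT replicate 2 (0.135), with differences from 0.86 to 1.36. The Emilin1 call ended without T replicate 1 (0.0679), T replicate 2 (0.172) or PT replicate 1 (0.195, difference 0.88), and with quantile normalization (0.0588). Matn2 lost its call in 8 of the alternatives, with adjusted p from 0.0583, with the replicate number as a block, to 0.212.

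**Figure D4:**
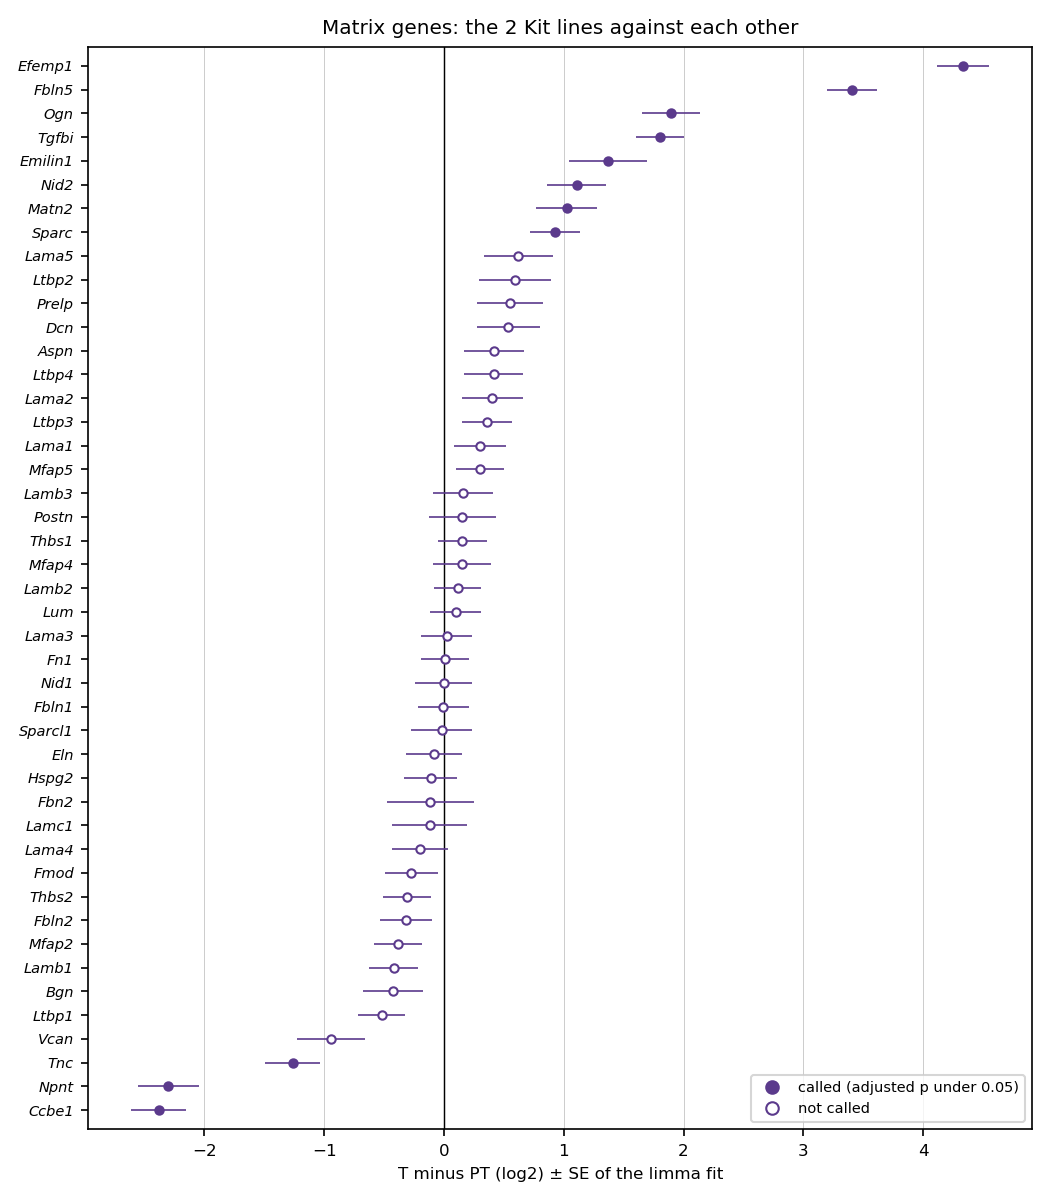
Log2 difference between the Kit lines, T minus PT (x axis), of the 45 measured members, with bars of 1 SE, filled points for the 11 called members and values above 0 higher in T. Efemp1 (4.33) and Fbln5 (3.41) lie farthest toward T, and Ccbe1 (-2.38) and Npnt (-2.30) farthest toward PT.

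Other genes of matrix assembly were listed by role, also with earlier results of these data known. Over all gene probe sets, 16.9% were called higher and 15.5% lower in T, and 17.9% higher and 18% lower in PT. Those shares also stand beside the counts of the lists that follow. Of 51 other matrix glycoproteins and proteoglycans, 2 were called higher and 12 lower in T, and 1 higher and 11 lower in PT, while 41 were at background on all 6 arrays. Their median differences were -0.11 and 0.04, beside 0.01 and 0.08 over all gene probe sets. Mgp, which encodes the calcification inhibitor matrix Gla protein, read 15.68 and 15.89 in mVec, 9.76 and 9.67 in T, and 9.01 and 9.38 in PT. Mgp was 67.0-fold lower in T (-6.07 ± 0.22) and 96.2-fold lower in PT (-6.59 ± 0.22), where 1 array was at background. Svep1, a large adhesion protein, was lower by at least 5.51-fold in T (-6.78 ± 0.23) and by at least 4.87-fold in PT (-6.81 ± 0.23). Agrn, which encodes the heparan sulfate proteoglycan agrin, was lower by at least 5.80-fold in T (-4.98 ± 0.27) and by at least 5.12-fold in PT (-6.12 ± 0.27). Ccn4, a matricellular gene, was called higher in both (1.78 ± 0.23 and 0.75 ± 0.23), and Ccn2 in T at background (1.16 ± 0.20).

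The 6 measured crosslinking enzymes split: 2 were called higher and 3 lower in T, and 2 higher and 4 lower in PT. Lox, the lysyl oxidase that crosslinks collagen and elastin, read 13.65 and 13.68 in mVec, 6.92 and 6.63 in T, and 4.45 and 4.54 in PT. Lox was lower by at least 28.4-fold in T (-6.89 ± 0.21) and by at least 25.1-fold in PT (-9.17 ± 0.21). Its relative Loxl3 was lower by at least 30.8-fold in T (-5.37 ± 0.21) and by at least 27.2-fold in PT (-6.81 ± 0.21). Another relative, Loxl4, went the opposite way, from 6.50 and 7.17 in mVec to 10.14 and 10.37 in T and 10.21 and 10.34 in PT. Loxl4 was at least 2.38-fold higher in T (3.42 ± 0.26) and at least 2.42-fold higher in PT (3.44 ± 0.26). Pxdn, the peroxidase that crosslinks basement membrane collagen, was 3.92-fold lower in T (-1.97 ± 0.21) and 6.24-fold lower in PT (-2.64 ± 0.21).

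Proteoglycans need sugar chains, and of 31 glycosaminoglycan synthesis enzymes 3 were called higher and 16 lower in T, and 2 higher and 20 lower in PT (medians -0.95 and -1.06). Hs6st2, a heparan sulfate sulfotransferase, was lower by at least 1.45-fold in T (-4.81 ± 0.22) and by at least 1.28-fold in PT (-4.98 ± 0.22). Csgalnact1, which starts chondroitin chains, was lower by at least 2.61-fold in T (-4.14 ± 0.28) and by at least 2.31-fold in PT (-3.84 ± 0.28). Chst15, a chondroitin sulfotransferase, was 15.1-fold lower in T (-3.91 ± 0.24) and 13.8-fold lower in PT (-3.79 ± 0.24), with 1 array of each Kit line at background. Dse, the epimerase that turns chondroitin into dermatan sulfate, was 5.0-fold lower in T (-2.32 ± 0.23) and 13.5-fold lower in PT (-3.75 ± 0.23). In PT 1 Dse array was at background.

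Of 22 receptors for laminin, fibronectin and proteoglycans, 1 was called higher and 12 lower in T, and 0 higher and 14 lower in PT, with medians of -1.12 and -1.18. Itga9, an integrin subunit that binds tenascin-C, was lower by at least 2.42-fold in T (-6.20 ± 0.23) and by at least 2.13-fold in PT (-6.36 ± 0.23). Itga2, a subunit for collagen and laminin, was called lower at background (-4.31 ± 0.26 and -3.54 ± 0.26). The syndecans Sdc2 and Sdc3, membrane heparan sulfate proteoglycans, stayed above background. Sdc2 was 9.99-fold lower in T (-3.32 ± 0.21) and 15.9-fold lower in PT (-3.99 ± 0.21). Sdc3 was 15.4-fold lower in T (-3.95 ± 0.20) and 14.7-fold lower in PT (-3.87 ± 0.20).

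Of 13 TGF-beta ligands, receptors and SMADs, 8 were called lower and 0 higher in each Kit line, with medians of -1.63 and -1.46. Tgfb3, a ligand, read 13.00 and 13.18 in mVec, 8.62 and 9.50 in T, and 6.52 and 7.05 in PT. Tgfb3 was 16.3-fold lower in T (-4.03 ± 0.31), with 1 T array at background, and lower by at least 16.9-fold in PT (-6.31 ± 0.31). Tgfbr3, the co-receptor betaglycan, was lower by at least 9.33-fold in T (-4.49 ± 0.25) and by at least 8.24-fold in PT (-4.98 ± 0.25). Tgfbr2, the signalling receptor that binds ligand, was 8.72-fold lower in T (-3.12 ± 0.22) and lower by at least 10.9-fold in PT (-3.68 ± 0.22). Smad6, an inhibitor of the pathway, was called lower at background (-2.73 ± 0.25 and -2.89 ± 0.25).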

How the data were processed

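The authors deposited 1 value on a log2 scale for each probe set of each Affymetrix Clariom S mouse array, the array type being per the labels. No source used here gives the software, background correction, normalization or genome build. That the scale is log2 was inferred from the range of values, and values above 16 exceed a scanner's usual range. The table has 28846 rows, of which 22206 gene probe sets were tested and 6640 others left out.

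All 6 arrays entered 1 limma 3.58.1 model (R 4.3.3, statmod 1.5.0) with a mean for each of 3 lines, 3 residual degrees of freedom and 6.36 prior ones. Each Kit line was set against mVec, and T against PT. P-values are two-sided and adjusted by Benjamini-Hochberg over all gene probe sets. The number of arrays limits the precision. The code was tested on simulated data. The deviations of arrays with equal replicate numbers correlated at 0.082, 0.043 and 0.040 between lines, so the numbers were not used as pairs.

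The background limit, the 95th percentile of negative controls, separates measured folds from lower bounds. The members and all lists were chosen with earlier results of these data known. By rule, array values are given for up to 4 members per role group with the largest differences, for those called with opposite signs in T and PT, and for those called between T and PT by at least 2 on the log2 scale. From every other list, up to 4 called genes are named. Array values of Bgn, Vcan, Thbs1, Sparc, Lamb1 and Lamc1, and the names Ccn2, Ccn4, Ippk, Nol8 and Btg2, were added after their values were seen. Gene order comes from RefSeq on GRCm38.p6. Alternatives changed the scaling, filter, limma prior, arrays, block, call rule and background limit.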

Additional observations from a re-analysis of the deposited data

Results flagged for a closer look

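For 11 matrix genes the differences of T and PT from mVec were themselves unlike, by limma's test of T minus PT adjusted over all gene probe sets. On the log2 scale these were Efemp1 (4.33), Fbln5 (3.41), Ogn (1.90), Tgfbi (1.80), Emilin1 (1.37), Nid2 (1.11), Matn2 (1.02) and Sparc (0.93), all higher in T, and Tnc (-1.26), Npnt (-2.30) and Ccbe1 (-2.38), all higher in PT. For Tgfbi, Emilin1, Nid2 and Matn2 both lines were at background.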

How the results depend on the processing

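Of 135 member differences in the 3 comparisons, 66 were called. Of these, 54 kept their call in every alternative that tested them, 12 lost it in at least 1 and 0 reversed. Members called lower ranged over the alternatives from 22 to 28 in T (27 as reported) and from 22 to 27 in PT (25 as reported). The 22 in each line came with background probe sets left out, where only 25 members were tested. Those 25 are the members above background on both mVec arrays, and 12 of them passed through mVec alone. Lower calls were thus favoured by the filter itself, so this count is no independent check. That filter also left out Fbln1, the member called higher in T. Members called higher in T went from 1 to 0 with background probe sets left out, at an adjusted p under 0.01, and with a difference of at least 1 required, and ranged from 0 to 1 without single arrays. In PT they went from 2 to 4 with centred arrays (Vcan and Lamb1 were added), to 1 at an adjusted p under 0.01 and to 1 with a difference of at least 1, and ranged from 1 to 3 without single arrays. Between the Kit lines, higher calls in T went from 8 to 4 at an adjusted p under 0.01 and ranged from 4 to 7 without single arrays. With the replicate block, 1 member was higher and 27 lower in T, 2 were higher and 25 lower in PT, and between the Kit lines 7 were higher in T and 4 lower. Matn2 lost its T minus PT call under the block (adjusted p = 0.0583). At a 99th percentile background limit, members above background on at least 1 array went from 12 to 6 in T and from 11 to 5 in PT. That limit was 13.07 and 12.64 on the mVec arrays. Of the members lost in both Kit lines, Bgn, Prelp, Hspg2, Lamb2 and Mfap4 were then at background in mVec too. The others stayed above the limit on at least 1 mVec array. A 90th percentile limit, 7.69 to 7.99 over the arrays, also changed which members were lost. Bgn and Hspg2 were then above it on all Kit-line arrays, Tgfbi and Matn2 on T replicate 2 and Npnt on T replicate 1. Ltbp3 was above it in PT too. In the other direction, Sparcl1 and Emilin1 were then above it on both mVec arrays and on no Kit-line array.

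Some differences that were not called changed sign. Fbln5 in T was 0.0015 with centred arrays, and Lamb1 in T -0.034 with quantile normalization. Without single arrays, Postn T minus PT ranged from -0.18 to 0.49, Fn1 T minus PT from -0.027 to 0.044, Lama4 T minus PT from -0.46 to 0.06, Lamb1 in T from -0.0905 to 0.18 and Lamc1 in PT from -0.62 to 0.10. The cause was not tested. Signal over background limits the folds: 33 of 45 members in T and 34 in PT were at background. Of these, 13 in T and 14 in PT had only a lower bound on the fold against mVec. The other 20, at background on all 6 arrays, had no fold.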
